A study of Mus musculus with 9 samples.

Results

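The 8 genes described here encode receptors and surface enzymes that sense or process extracellular ATP, NAD and adenosine: P2rx7, P2rx4, Art2a, Art2b, Entpd1, Nt5e, Cd38 and Adora2a. They are 8 of the 14004 genes in the deposited table. They were chosen from their names and from tissue differences already seen in these data, so their levels and their differences between thymus, liver and spleen are given as a description, without a test of their own. RNA-seq was run on iNKT1 cells, the T-bet-expressing subset of invariant natural killer T cells, with 3 libraries from thymus, 3 from liver and 3 from spleen. All 9 libraries came from untreated C57BL/6 mice of the genotype Tbx21CreTg;Rosa26-LSL-YFP+/+, in which the Tbx21 promoter drives Cre and Cre switches on YFP from Rosa26. There was no other genotype or treatment, the age of the mice and the sorting gate are not given in the sources used here, and the libraries were described as independent replicates without stating whether each was a separate mouse. Any p-value below therefore rests on the spread between these samples, pooled over the tissues and moderated across genes.

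Extracellular ATP opens the channels of the P2X family, and P2RX7 is the member known in T cells for opening to high ATP, for shedding of surface proteins and for cell death. On mouse T cells the ecto-enzyme encoded by Art2b transfers ADP-ribose from extracellular NAD onto P2RX7, which lets the channel open at little ATP. ATP is removed by CD39 (Entpd1), which makes AMP, and then by CD73 (Nt5e), which makes adenosine, the ligand of the receptor encoded by Adora2a, while CD38 consumes NAD and so competes with ART2 for its substrate.

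Art2a and Art2b are neighbours on the minus strand of chromosome 7 in mm10, Art2a at chr7:101552453-101560865 and Art2b at chr7:101576970-101585600, with 16104 bases between them. In GENCODE M21 Art2a is named Art2a-ps and typed as a polymorphic pseudogene, and C57BL/6 is a strain known for a premature stop in it. The stretch around that codon is shown because the 2 copies are told apart here, both in the protein they can make and in the reads they give. Both run 5′ to 3′ on the coding strand, from GRCm38, and capitals mark codon 161 of the reading frame.
Art2b, chr7:101580181-101580237: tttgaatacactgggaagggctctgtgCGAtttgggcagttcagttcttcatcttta
Art2a, chr7:101554820-101554876: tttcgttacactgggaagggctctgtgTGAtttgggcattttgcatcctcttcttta
Counted from the A of the start codon, with the Art2b base first, the substitution is C481T. It turns the CGA codon of Art2b into the stop codon TGA in Art2a, at codon 161 of a frame annotated to run over 288 codons.

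The pair had been taken as near-identical when it was selected, and the reference sequences were compared to see how far reads could be split between them. The coding sequences matched at 754 of 866 aligned columns, an identity of 87.1%. Of the 1183 windows of 75 bases in the Art2a transcript, 78 (6.59%) occurred exactly in the Art2b transcript and 148 (12.5%) occurred there with at most 2 mismatches. The median window had 14 mismatches to its best match in Art2b. Reads from a small part of the transcript could thus be assigned to either copy, the authors' treatment of such reads is not given in the sources used here, and the sum of the 2 genes is reported beside each.

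P2rx7 lies on the plus strand at chr5:122643911-122691432 and P2rx4 follows it on the same strand at chr5:122707544-122729738, after a gap of 16111 bases. RefSeq places a pair of start sites in P2rx7, and the 250 bases before each are shown because, with all 9 libraries, P2rx7 had the largest log2 difference from thymus of the 8 genes. Without thymus replicate 2 that of Art2a was larger, at 4.73 against 4.38 in liver and 4.78 against 4.09 in spleen. In that setting P2rx4 was at 4.29 in liver and at 4.82, above Art2a, in spleen. Capitals mark matches, on either strand, to 5 motifs searched by their letters: AP-1 (TGACTCA), the GC box (GGGCGG), a T-box motif (TCACACCT), a TCF/LEF motif (CTTTGAA) and a nuclear receptor core (AGGTCA).
P2rx7 first start, GRCm38.p6 chr5:122643677-122643926: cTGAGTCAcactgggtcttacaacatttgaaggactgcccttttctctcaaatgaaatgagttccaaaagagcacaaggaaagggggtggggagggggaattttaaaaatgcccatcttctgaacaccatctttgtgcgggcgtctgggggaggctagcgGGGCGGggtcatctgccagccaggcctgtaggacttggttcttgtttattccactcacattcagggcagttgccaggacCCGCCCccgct
P2rx7 second start, GRCm38.p6 chr5:122650133-122650382: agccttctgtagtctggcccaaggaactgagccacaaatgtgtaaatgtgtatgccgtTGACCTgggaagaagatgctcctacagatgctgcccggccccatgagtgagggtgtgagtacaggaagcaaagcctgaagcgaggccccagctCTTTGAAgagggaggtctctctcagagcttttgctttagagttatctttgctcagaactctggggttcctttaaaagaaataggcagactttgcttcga
The first window held 1 AP-1 match and 2 GC boxes, and the second held 1 TCF/LEF match and 1 nuclear receptor core. Among 32851 promoter windows of the same length, 4.46% held the AP-1 letters, 32.7% the GC box, 4.46% the TCF/LEF letters and 14% the nuclear receptor core. The T-box letters were in neither window and in 1.12% of all windows. The motifs overlap no other match in these windows. The RNA data do not tell the start sites apart.

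P2rx7 was low in thymus and high in both peripheral tissues. Its normalised read count was 881, 10.4 and 514 in thymus replicates 1, 2 and 3, then 9921, 18357 and 15109 in liver and 8005, 11827 and 15862 in spleen. Every liver and spleen library was far above every thymus library, and thymus replicate 2, with 9 recovered reads, stood far below the other thymus libraries. The means were 468 ± 437 in thymus, 14462 ± 4255 in liver and 11898 ± 3929 in spleen (SD, n = 3 each).

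The mean of P2rx7 was thus 30.9-fold higher in liver and 25.4-fold higher in spleen than in thymus. Log2 differences here and below are between means of log2(value + 1). Their SEs come from limma-trend, where the spread of a gene is pooled over the tissues and drawn towards that of genes of similar level. An SE is thus not the spread of that gene in the compared tissues alone. Adding 1 shrinks the differences of low genes. A very low library can also make a difference of mean logs larger than the fold between the means. For P2rx7 the liver difference was 6.34 (SE 1.08) and the spleen difference 6.05 (SE 1.08). Thymus replicate 2 carried part of that size: without it the differences were 4.38 and 4.09, and without thymus replicate 1 they were 7.51 and 7.22. On recovered reads the liver and spleen differences were 4.91 and 4.62 in DESeq2 and 4.93 and 4.67 in edgeR. Between liver and spleen the values overlapped, and the log2 difference was 0.29 (SE 1.08).

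P2rx4, a P2X channel that opens at lower ATP, was also lower in thymus than in both peripheral tissues. It had 3.39, 3.50 and 52.7 in thymus, 824, 162 and 201 in liver, and 658, 576 and 212 in spleen. The first 2 thymus libraries rest on 3 reads each, and thymus replicate 3, with 42 reads, is the highest of the tissue. No thymus value reached the lowest peripheral value. The means were 19.9 ± 28.4 in thymus, 396 ± 371 in liver and 482 ± 237 in spleen (SD, n = 3 each), a 19.9-fold difference for liver and 24.3-fold for spleen. The log2 differences from thymus were 4.88 (SE 1.43) and 5.41 (SE 1.43), and without thymus replicate 3 they were 6.08 and 6.61. Liver and spleen overlapped.

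**Figure D1:**
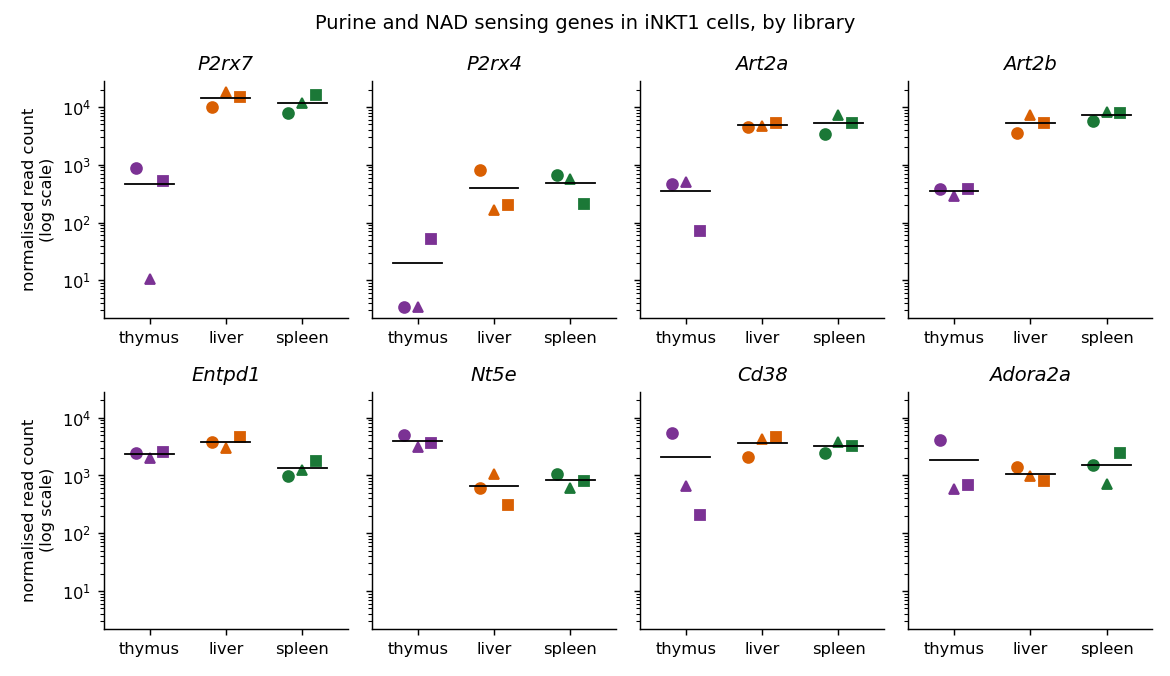
Normalised read counts (log axis) of the 8 genes in each library of thymus, liver and spleen, with circles for replicate 1, triangles for replicate 2, squares for replicate 3 and a black line for the mean of 3. P2rx7, P2rx4, Art2a and Art2b are higher in all 6 peripheral libraries than in the 3 thymus libraries, Nt5e is lower in all 6, and thymus replicate 2 is the lowest P2rx7 value at 10.4.

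Both ART2 genes were low in thymus and high in liver and spleen. Art2b had 378, 283 and 376 in thymus, 3529, 7180 and 5359 in liver, and 5768, 8145 and 7762 in spleen. These were the most even thymus values of the P2X and ART2 genes, and no library of the periphery came near them. The means were 346 ± 54.1 in thymus, 5356 ± 1825 in liver and 7225 ± 1276 in spleen (SD, n = 3 each), 15.5-fold higher in liver and 20.9-fold higher in spleen than in thymus. The log2 differences were 3.90 (SE 0.39) and 4.38 (SE 0.39).

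Art2a, the copy with the premature stop, had the same direction. It had 473, 510.0 and 70.2 in thymus, 4519, 4773 and 5376 in liver, and 3429, 7150 and 5303 in spleen. Thymus replicate 3 was the low library here, while thymus replicate 2 was the low one for P2rx7. The means were 351 ± 244, 4889 ± 440 and 5294 ± 1861 in thymus, liver and spleen (SD, n = 3 each), a 13.9-fold and a 15.1-fold difference from thymus. The log2 differences were 4.24 (SE 0.63) in liver and 4.29 (SE 0.63) in spleen, and without thymus replicate 3 they were 3.31 and 3.36.

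The sum of Art2a and Art2b does not depend on how reads were split between the copies, but it would miss shared reads if these were discarded. It was 851, 793 and 446 in thymus, 8048, 11953 and 10735 in liver, and 9197, 15296 and 13065 in spleen. The means were 697 ± 219, 10245 ± 1998 and 12519 ± 3086 (SD, n = 3 each), so the sum was 14.7-fold higher in liver and 17.96-fold higher in spleen than in thymus. The log2 differences were 3.91 (SE 0.34) and 4.19 (SE 0.34). They ran from 3.62 to 4.08 and from 3.90 to 4.40 when each of the 9 libraries was left out in turn, a narrower range than for P2rx7. Liver and spleen overlapped for Art2a, for Art2b and for the sum.

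Art2b made up 44.4%, 35.7% and 84.3% of the sum in thymus replicates 1, 2 and 3. Its share was 43.9%, 60.1% and 49.9% in liver and 62.7%, 53.3% and 59.4% in spleen. The tissues overlapped in this share, and thymus replicate 3, where Art2a alone was low, had the highest. The value of P2rx7 divided by the ART2 sum was between 1.23 and 1.54 in liver and between 0.773 and 1.21 in spleen. In thymus it was 1.04, 0.0132 and 1.15, so thymus replicates 1 and 3 lay near the peripheral libraries and replicate 2 did not.

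**Figure D2:**
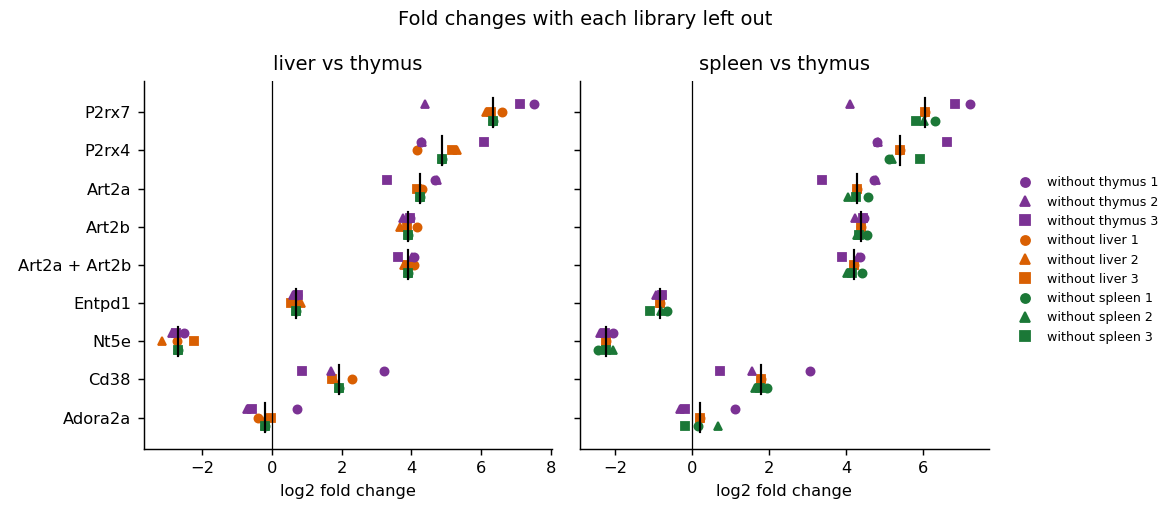
Log2 differences from thymus (log2(value + 1) scale, x axis) for each gene and for the ART2 sum, with all 9 libraries and with each library left out in turn. The points of Art2b and of the sum lie close together, while P2rx7 runs from 4.38 to 7.51 in liver and from 4.09 to 7.22 in spleen, depending on thymus replicates 1 and 2.

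Nt5e, the CD73 gene, had the opposite order. Its values were 4946, 3078 and 3641 in thymus, 605, 1076 and 304 in liver, and 1045, 614 and 802 in spleen. All thymus libraries were above all peripheral libraries, with means of 3889 ± 958 against 662 ± 389 in liver and 820 ± 216 in spleen (SD, n = 3 each). The mean was 5.88-fold lower in liver and 4.74-fold lower in spleen than in thymus, with log2 differences of -2.71 (SE 0.54) and -2.25 (SE 0.54). Liver and spleen overlapped.

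Entpd1, the CD39 gene one step upstream of CD73, was lowest in spleen. It had 2428, 2029 and 2521 in thymus, 3749, 3006 and 4590 in liver, and 971, 1225 and 1768 in spleen. The 3 tissues did not overlap. Liver and spleen were apart in this way for 1 of the 8 genes, beside 12.7% of all genes tested. The means were 2326 ± 261, 3782 ± 792 and 1321 ± 407 in thymus, liver and spleen (SD, n = 3 each). Liver was 1.63-fold above thymus, spleen was 1.76-fold below thymus, and liver was 2.86-fold above spleen. The log2 differences were 0.69, -0.85 and 1.54, each with an SE of 0.39.

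The ratio of Nt5e to Entpd1 within a library separated the 3 tissues. It was 2.04, 1.52 and 1.44 in thymus, 1.08, 0.501 and 0.454 in spleen, and 0.161, 0.358 and 0.0662 in liver. The order was thymus above spleen above liver with no overlap, because Nt5e was low in both peripheral tissues while Entpd1 was high in liver and low in spleen. These are ratios of normalised read counts that were not divided by gene length. The ratio of P2rx7 to Nt5e was 0.178, 0.00339 and 0.141 in thymus and lay between 16.4 and 49.7 in liver and between 7.66 and 19.8 in spleen.

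**Figure D3:**
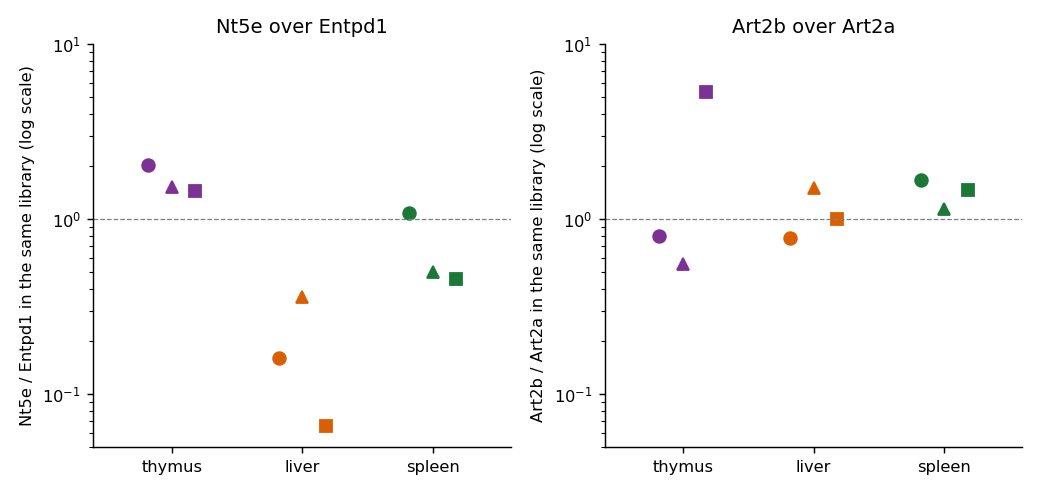
Ratios of normalised read counts between genes within each library (log axis), by tissue, with the same symbols for replicates 1 to 3. The ratio of Nt5e to Entpd1 does not overlap between any of the 3 tissues. The ratio of Art2b to Art2a is 5.35 in thymus replicate 3 and between 0.556 and 1.68 in the other 8 libraries.

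Cd38 and Adora2a varied more among the thymus libraries than between the tissue means. Cd38 was 5464, 667 and 211 in thymus, 2129, 4283 and 4673 in liver, and 2489, 3845 and 3244 in spleen. Thymus replicate 1 was the highest and thymus replicates 2 and 3 were the lowest of all 9 libraries. The means were 2114 ± 2910, 3695 ± 1370 and 3193 ± 679 in thymus, liver and spleen (SD, n = 3 each). The log2 differences from thymus were 1.93 (SE 0.81) in liver and 1.78 (SE 0.81) in spleen with overlap. They were 3.22 and 3.06 without thymus replicate 1, 0.87 and 0.72 without thymus replicate 3, and 0.76 and 0.53 in DESeq2 on recovered reads.

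Adora2a was 4197, 576 and 696 in thymus, 1388, 990 and 818 in liver, and 1494, 720 and 2408 in spleen. Here too thymus replicate 1 held the highest value, and every pair of tissues overlapped. The means were 1823 ± 2057, 1065 ± 292 and 1540 ± 845 (SD, n = 3 each). Compared with thymus the log2 difference was -0.19 (SE 0.71) in liver, and it was -0.72 without thymus replicate 2 and 0.72 without thymus replicate 1. In spleen it was 0.21 (SE 0.71), although the spleen mean was below the thymus mean, and it was -0.32 without thymus replicate 2 and 1.12 without thymus replicate 1.

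Levels were compared between genes after division by the exonic length in kilobases of the GENCODE M21 models, since the annotation the authors counted on is not given in the sources used here. The order depends on these lengths: 1.26 kb for Art2a, from 1 transcript, 2.83 kb for Art2b and 5.97 kb for P2rx7. Before division the order was P2rx7, Art2b and Art2a, with means of 14462, 5356 and 4889 in liver and 11898, 7225 and 5294 in spleen. In liver, Art2a came first with 3890 ± 350 per kb (SD, n = 3), and its libraries did not overlap with those of P2rx7 at 2420 ± 713. Art2b followed at 1890 ± 645 and overlapped with P2rx7. Then came Cd38 at 950 ± 352 and Entpd1 at 678 ± 142, which overlapped with each other, then Adora2a at 348 ± 95.5, and last Nt5e at 76.9 ± 45.3 and P2rx4 at 56.3 ± 52.9, which overlapped.

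In spleen the order by per-kb level was Art2a (4210 ± 1480), Art2b (2550 ± 451), P2rx7 (1990 ± 658), Cd38 (821 ± 175), Adora2a (503 ± 276), Entpd1 (237 ± 73.0), Nt5e (95.4 ± 25.2) and P2rx4 (68.6 ± 33.8), as mean ± SD of 3 libraries. Neighbours overlapped except P2rx7 with Cd38 and Entpd1 with Nt5e. In thymus the order by per-kb mean was Adora2a (595 ± 672), Cd38 (543 ± 748), Nt5e (452 ± 111), Entpd1 (417 ± 46.8), Art2a (279 ± 194), Art2b (122 ± 19.1), P2rx7 (78.5 ± 73.2) and P2rx4 (2.83 ± 4.05), and every neighbouring pair overlapped. The ART2 genes and P2rx7 thus filled the first 3 places in both peripheral tissues and places 5, 6 and 7 in thymus.

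All 8 genes passed the filter on low values, which kept the 13309 genes that reached 1 in 3 or more libraries. In limma-trend with Benjamini-Hochberg adjustment at 0.05, 4 of the 8 were called between liver and thymus: P2rx7, Art2a and Art2b higher in liver, beside 0.203% of all genes tested, and Nt5e lower, beside 0.12%. Between spleen and thymus 3 were called, P2rx7, Art2a and Art2b, all higher in spleen, beside 0.188% of all genes called higher and 0.21% called lower. Between liver and spleen 0 of the 8 were called, beside 0.015% of all genes. In that comparison 403 of all genes had an unadjusted p under 0.05. On recovered reads, DESeq2, which called more genes over the whole table than limma-trend, called 1 of the 8, Entpd1, and edgeR called 0. These genes were selected with the same differences in view, so nothing is read from the counts. Both thymus comparisons use the same 3 thymus libraries.

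Of the calls, that of Art2b passed in all 18 alternative settings of both thymus comparisons. The call of Art2a passed in 14 of 18 for liver and 15 of 18 for spleen, and that of P2rx7 in 13 and 12. Both genes lost the liver call without liver replicate 1, 2 or 3, and the spleen call without spleen replicate 2 or 3. P2rx7 also lost the spleen call without spleen replicate 1 or liver replicate 1. P2rx4 was called in both thymus comparisons without thymus replicate 3, and Cd38 in both without thymus replicate 1. The call of Nt5e in liver passed in 3 of 18 and was lost whichever single library was left out. In edgeR on recovered reads Art2a and Art2b were called in both thymus comparisons and P2rx7 in neither, and DESeq2 called P2rx7, P2rx4, Art2a, Art2b and Nt5e in both. Over the whole table DESeq2 called 447 genes in liver and 505 in spleen against thymus, beside 43 and 53 in limma-trend and 22 and 37 in edgeR.

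Counted by overlap, 5 of the 8 had all liver values above all thymus values, beside 9.61% of all genes, and 1 had all below, beside 5.73%. For spleen 4 had all values above thymus, beside 9.29%, and 2 had all below (Entpd1 and Nt5e), beside 6.03%. Between liver and spleen 1 did not overlap, beside 12.7% of all genes. The median log2 difference of the 8 was 2.92 in liver and 3.04 in spleen against thymus and -0.23 between liver and spleen. Over all genes tested it was 0.29, 0.33 and -0.02. Taken relative to these medians, the positive differences from thymus are smaller and the negative ones larger: in spleen Nt5e goes to -2.57, Entpd1 to -1.18, and Adora2a turns from 0.21 to -0.12.

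**Figure D4:**
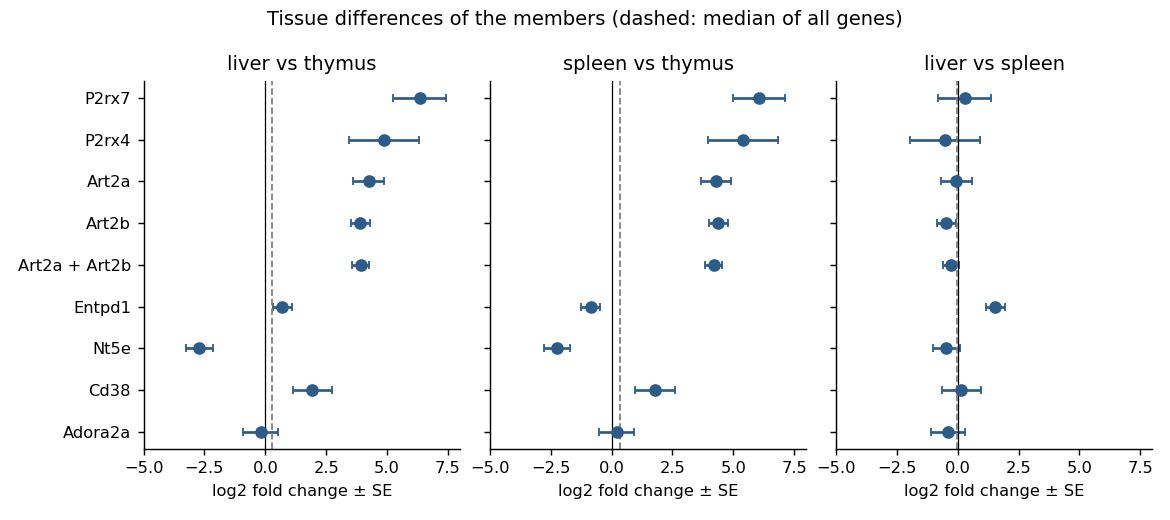
Log2 differences (log2(value + 1) scale, with SE as bars) of the 8 genes and the ART2 sum in the 3 comparisons, with the median of all 13309 genes tested as a dashed line. P2rx7, P2rx4, Art2a and Art2b lie above 3 in both thymus comparisons, Nt5e lies at -2.71 and -2.25, and in liver against spleen Entpd1 lies farthest from the line at 1.54.

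A wider list of 63 genes covered the rest of purine and NAD handling: other P2X, P2Y and adenosine receptors, ectonucleotidases, ATP release, adenosine uptake, NAD enzymes and the machinery downstream of P2RX7. Of these, 39 were in the table and 35 were tested. One passed in liver against thymus, Casp1, and 0 passed in spleen against thymus or in liver against spleen (limma-trend, Benjamini-Hochberg). At an unadjusted p under 0.05 there were 6, 6 and 1 of the 35, beside 1550, 1555 and 403 of all 13309 genes tested. DESeq2 on recovered reads called 2, 1 and 0 of them, Casp1 in both thymus comparisons and Nmnat2 in liver, and edgeR called 0, 0 and 0. In the thymus comparisons DESeq2 called 447 and 505 of all genes. Between liver and thymus 5 of the 35 did not overlap and were higher in liver, beside 9.61% of all genes, and 2 were lower, beside 5.73%. Between spleen and thymus these counts were 6, beside 9.29%, and 2, beside 6.03%. Between liver and spleen 6 of the 35 (17.1%) did not overlap, beside 12.7% of all genes. The list's median log2 differences were 0.22, 0.53 and 0.16 in liver against thymus, spleen against thymus and liver against spleen.

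Casp1, the caspase activated by inflammasomes downstream of P2RX7, had no recovered read in any thymus library. It had 684, 501 and 343 in liver and 226, 14.4 and 85.7 in spleen, so all liver values were above all spleen values. Set against a floor of 3 reads per thymus library, the liver mean was 135-fold higher and the spleen mean 28.9-fold higher. That floor covers counting error only, not the loss of a gene from a whole library, so these folds are not lower bounds. The adjusted p was 0.0335 in liver and 0.181 in spleen (limma-trend, Benjamini-Hochberg). The liver call was lost with edgeR, with a pseudocount of 8 and without any single liver or spleen library. It passed in 7 of 18 alternatives, over which the adjusted p ran from 1.17e-08 to 0.313.

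None of the genes named here that act with Casp1 downstream of P2RX7 passed the test. Nek7, a kinase that binds NLRP3, had means of 3973 ± 507, 4381 ± 1230 and 3808 ± 386 in thymus, liver and spleen (SD, n = 3 each), with overlap in every pair. Nlrp3 itself was not in the table. Il18 had 40 reads in liver replicate 1, 107 in spleen replicate 1, 1 in spleen replicate 3 and none elsewhere, and it was not tested. Pycard, the adaptor ASC, had 461 ± 124, 996 ± 32.5 and 644 ± 330, and its liver values were all above its thymus values without passing the test (adjusted p = 0.496, limma-trend). The surface sheddases Adam17 (3878 ± 2190, 1924 ± 124 and 2665 ± 802) and Adam10 (2949 ± 1012, 2149 ± 451 and 1955 ± 309) overlapped in every pair of tissues.

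Of the other P2X channels only P2rx5 was in the table, with 11 reads in liver replicate 2, 93 in spleen replicate 2 and no read elsewhere, and it was not tested. The P2Y receptor gene P2ry10 had 1348 ± 216 in thymus, 963 ± 94.0 in liver and 806 ± 278 in spleen (SD, n = 3 each), its thymus values being above all others without passing the test (adjusted p = 0.750 and 0.565, limma-trend). P2ry10b had 433 ± 368, 276 ± 120 and 306 ± 317. P2ry13, an ADP receptor gene, was read in thymus replicate 3 and spleen replicate 1 and in no other library. Adora2b, the lower-affinity adenosine receptor gene, had 44 reads in thymus replicate 3 and none elsewhere.

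Genes that make or clear adenosine beside Nt5e did not pass the test. Acp3, an ectophosphatase that also makes adenosine, had 496 ± 260 in thymus, 1196 ± 343 in liver and 1433 ± 393 in spleen (SD, n = 3 each), and both peripheral tissues lay above thymus without overlap, opposite to Nt5e (adjusted p = 0.383 and 0.288, limma-trend). Enpp1, which cleaves ATP to AMP, had 1364 ± 600, 742 ± 106 and 652 ± 200. Ada, which deaminates adenosine, had 27.8 ± 42.4, 455 ± 356 and 242 ± 141, again with both peripheral tissues above thymus (adjusted p = 0.238 and 0.303). The nucleoside transporter Slc28a2 had 4052 ± 2478, 4166 ± 426 and 3899 ± 722, and Slc29a3 had 352 ± 406, 650 ± 107 and 678 ± 244.

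Among the genes of NAD supply, Nampt, the rate-limiting enzyme of NAD salvage, had 791 ± 486, 817 ± 303 and 899 ± 574 in thymus, liver and spleen (SD, n = 3 each), with overlap. Nmnat2, which completes NAD, had 872 ± 255, 136 ± 67.9 and 298 ± 42.1, and no pair of its tissues overlapped (against thymus, limma-trend adjusted p = 0.217 for liver and 0.498 for spleen). Qprt had 257 ± 196, 261 ± 277 and 195 ± 210. The ADP-ribosyl hydrolase gene Adprh had 585 ± 840, 244 ± 42.0 and 637 ± 315, Adprs had 108 ± 187, 118 ± 94.8 and 132 ± 124, and the ADP-ribose-gated channel gene Trpm2 rested on spleen replicate 1, with 590 reads. Of the volume-regulated anion channel subunits, which can release ATP, Lrrc8c had 5594 ± 1688, 6085 ± 1658 and 4437 ± 332, Lrrc8a had 454 ± 465, 1484 ± 839 and 921 ± 383, and Lrrc8d had 745 ± 1085, 419 ± 168 and 1037 ± 348.

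**Figure D5:**
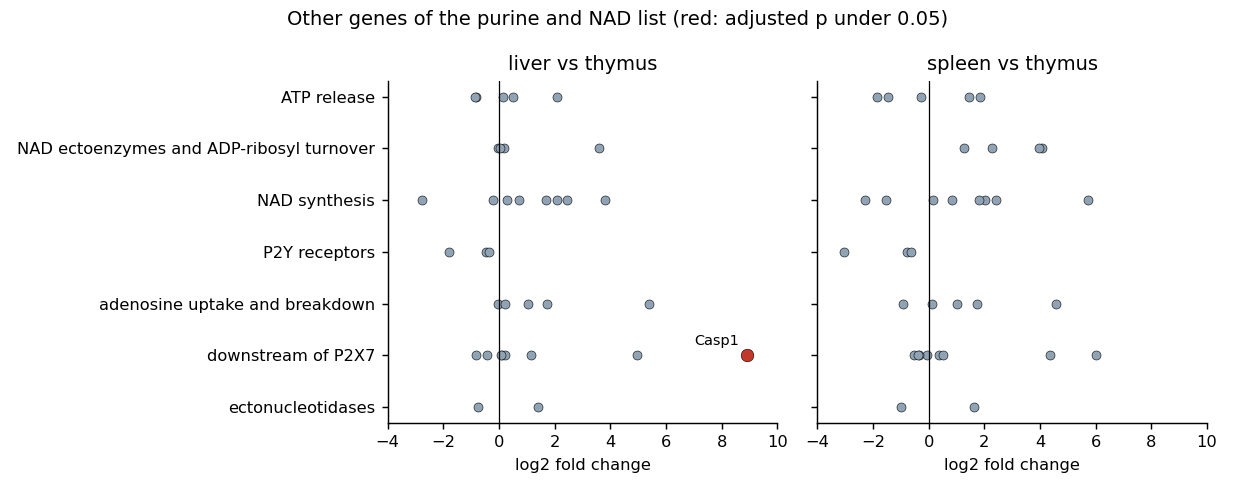
Log2 differences from thymus (log2(value + 1) scale) of the 35 tested genes of the wider purine and NAD list in liver and spleen, grouped by role. Casp1 is the 1 gene past the threshold, in liver, and the medians of the list are 0.22 in liver and 0.53 in spleen.

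Among the genes whose pattern over the 9 libraries was most like that of P2rx7, by Pearson's r of log2(value + 1) over 8851 genes with a mean of at least 100, were Soat2 (r = 0.979), Cd226 (0.974), Papss1 (0.973) and Rbks (0.970). Cd226, an activating receptor of T and NK cells, had means of 6704 ± 2659, 14835 ± 1108 and 12622 ± 1648 in thymus, liver and spleen (SD, n = 3 each). For the ART2 sum they were Pak6 (0.980), Rbm24 (0.980), Mmp9 (0.956), Arhgef10 (0.954) and Timm10 (0.953). Mmp9, a secreted protease, had 0.867 ± 1.46, 3349 ± 284 and 1425 ± 752. The points share 3 tissues and the same libraries, so a gene that is low in thymus and high elsewhere scores high. By the same measure the r with P2rx7 was 0.892 for Art2b, 0.817 for P2rx4, 0.743 for Art2a, 0.641 for Cd38, 0.264 for Adora2a, 0.0516 for Entpd1 and -0.747 for Nt5e.

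The recovered depth was 18479505 to 39772892 reads in 8 libraries and 3895216 reads in liver replicate 3. One read was worth 6.01 in that library and 0.597 to 1.25 in the others, so its value of Nt5e rests on 50 reads. T cell and iNKT1 genes (Cd3d, Cd3e, Cd3g, Tbx21, Zbtb16, Il2rb and Klrb1c) were all present, with a summed level of 94995 to 115920 in thymus, 122020 to 142469 in liver and 84420 to 102325 in spleen. Fewer cells of a type and less RNA per cell cannot be told apart in such bulk libraries. The libraries numbered 2 had Xist at 84543 to 107736 and Y-linked genes at a sum of 3.96 to 17.9, and thymus replicate 3 had both Xist (16531) and Y-linked reads (8785). Leaving out the 3 libraries numbered 2 gave log2 differences of 4.18 in liver and 4.06 in spleen for P2rx7, and 3.91 and 4.15 for the ART2 sum.

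Markers of other cells moved with some libraries. Of 6 hepatocyte genes, all in the table, the sum was 1390 to 1717 in liver, 110 to 868 in thymus and 0.525 to 40.5 in spleen. Most of it was Alb in liver (1172 to 1588), while in thymus Trf was the higher of the pair in every library (110 to 598, against 0 to 268 for Alb). Of 6 B cell genes 5 were in the table, with a sum of 3157 to 5351 in thymus, 5470 to 8085 in liver and 5260 to 11124 in spleen, mostly Ighm. Cd79a, Cd79b and Ms4a1 had no read in thymus and were highest in spleen replicate 1, at 514 to 625. The 5 myeloid genes in the table summed to 10.6 to 315 in thymus, 25.6 to 1298 in liver and 56.3 to 3040 in spleen, spleen replicate 1 again being the highest. In spleen replicate 2, where Cd79a, Cd79b, Ms4a1, Lyz2 and Csf1r had no read, P2rx7 was 11827 and Art2b 8145. Pecam1 was 71.7 to 302 in thymus and 394 to 1335 in liver and spleen. Platelet genes summed to 24.4 to 70.1 in liver and at most 2.68 elsewhere, and erythroid genes to at most 480 in any library. Of 5 immature thymocyte genes 3 were in the table. Rag1 was 486 in thymus replicate 3, where Art2a was lowest and P2rx4 highest of the thymus, and at or near 0 elsewhere. Dntt was 11.3 in that library and at or near 0 elsewhere. Cd8b1 did not follow them, with 28.9 in thymus replicate 3, 40.9 in liver replicate 1 and 25.7 in spleen replicate 3. Casp1 was highest in replicate 1 of liver and of spleen, as was the myeloid sum, but in liver replicate 2 it was 501 at a myeloid sum of 25.6. The part of these markers in the differences of the 8 genes and of Casp1 was not tested.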

How the data were processed

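RNA from 9 libraries of iNKT1 cells (3 per tissue) was sequenced for 76 cycles on a NextSeq500 from ultralow-input libraries, per the labels' protocols. The values are the authors' deposited normalised read counts, a signal that is not whole numbers, for 14004 genes in mm10. The submitters' processing notes name Trimmomatic 0.33, TopHat2 2.1.0, HTSeq 0.6.1 and edgeR, without role or order. The annotation, strand setting and treatment of shared reads are not given in the sources used here. Columns were assigned by the tissue and replicate number in their names, and thymus replicate 2 has a further letter in its prefix, left unexplained. Of the gene identifiers 13359 had a symbol and 645 did not. Art2a was matched under its reference name Art2a-ps.

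The 8 genes, the wider list, the markers and the rule for naming genes were chosen with earlier results of these data known. That rule names all 8 genes, any gene of the wider list past the threshold, the 3 genes with the highest mean in each group of that list, and the 5 genes most like P2rx7 and the ART2 sum. Pycard lies outside it and was added after its values were seen. Some genes that the rule or the marker lists hold are not reported here.

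Tests used limma-trend (limma 3.58.1, R 4.3.3) on log2(value + 1) with all 9 samples, keeping genes that reached 1 in 3 or more samples, no block, and two-sided Benjamini-Hochberg adjusted p-values at 0.05. The procedure was tested on simulated data, with changes set in liver only and means otherwise equal over the libraries. That test does not show how reliable the calls here are. Low values lie on ladders of whole reads, and reads were recovered by rounding: 62.3% of low values in liver replicate 3 and 94.7% to 100.0% in the others were within 0.1 reads of a whole number. The recovered reads served edgeR 4.0.16 and DESeq2 1.42.0 as alternatives, and those of liver replicate 3 are approximate. Other alternatives were equal library totals, a pseudocount of 8, no filter, a filter at 10, only the 6 samples compared, a replicate block, and leaving out libraries. Counts without molecular identifiers cover counting error only. Gene models came from GENCODE M21, and promoter windows and start sites from RefSeq for GRCm38.p6. Art2a and Adora2a had no promoter entry.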

Additional observations from a re-analysis of the deposited data

How the results depend on the processing

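Of 486 values of a log2 difference of the 8 genes or the ART2 sum under an alternative, 483 stayed within 1 residual SD of the reported value, 3 moved further and 0 of those called reversed. Between liver and thymus 43 genes were called over the whole table: 22 with edgeR, 447 with DESeq2, 12 with only the 6 samples compared, 12 without the libraries numbered 2, and 8 to 151 with each library left out, 151 being without thymus replicate 3. Between spleen and thymus 53 were called: 505 with DESeq2, 16 with only 6 samples, 19 without the libraries numbered 2, and 9 to 140 with each library left out, 140 again without thymus replicate 3. Between liver and spleen 2 were called: 24 with DESeq2, 6 with only 6 samples, 0 without the libraries numbered 2, and 0 to 3 with each library left out. Of the 8 genes, 4 were called between liver and thymus: 2 with edgeR, 1 with only 6 samples (Art2b), and 1 to 4 with each library left out, 1 being without liver replicate 1, 2 or 3. For spleen the count was 3: 5 with DESeq2 (P2rx4 and Nt5e added), 1 with only 6 samples, and 1 to 4 with each library left out, 1 being without spleen replicate 2 or 3. Between liver and spleen it was 0, and 1 with DESeq2. The wider list had 1 call between liver and thymus: 0 with edgeR, a pseudocount of 8, only 6 samples or without the libraries numbered 2, 2 with DESeq2, and 0 to 1 with each library left out. Between spleen and thymus it had 0, and 1 with DESeq2. The cause was not tested, except that only 6 samples and libraries left out mean fewer samples. 

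The replicate numbers were not treated as pairs, since no label says that a number marks a shared mouse or day and the deviations of same-numbered libraries had an r of -0.000732 to 0.0891 over 9 pairs. As a hint from the data, 13 of 18 comparisons of a library with another tissue were best with its own number, and the libraries numbered 2 share high Xist and low Y-linked values in all 3 tissues. With the replicate number as a block, 42, 55 and 4 genes were called in liver against thymus, spleen against thymus and liver against spleen, with 3, 3 and 0 of the 8 genes (Nt5e lost in liver) and 0, 0 and 0 of the wider list. Equal library totals moved the median log2 difference of all genes to 0.43 in liver and 0.48 in spleen against thymus. In edgeR on recovered reads, which changes the model as well as the scaling, it was -0.02 and 0.03. The depth of liver replicate 3 limits low genes there to steps of 6.01.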
